A study of Rattus norvegicus with 24 samples.

Results

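The genes described here are those of acetylcholine in the nucleus accumbens (NAc) of the rat: Chat, Slc18a3 and Slc5a7, which mark cholinergic neurons, Ache, and the 5 muscarinic receptor genes Chrm1 to Chrm5. They were chosen by name, 9 in all, and 8 of them were measured under that name among 32545 genes, while Slc18a3 was not analysed here. RNA was sequenced from NAc core and shell of adult male Sprague Dawley rats in 6 groups of 4 libraries, each library a separate animal by the labels. In the injection experiment, rats received 5 intraperitoneal injections of saline or of 250 µg/kg lipopolysaccharide (LPS), a bacterial cell wall component that activates the immune system, and later 5 daily injections of saline or of heroin raised from 1 to 5 mg/kg. The groups are named by both agents: Saline-Saline for the controls, LPS-Saline for LPS alone, Saline-Heroin for heroin alone, and LPS-Heroin for both. In the self-administration experiment, single-housed rats with a jugular catheter on a reversed light cycle worked for infusions 6 h a day over 10 days, of saline (Saline-SA) or of heroin at 0.075 mg/kg per infusion (Heroin-SA). These rats received no LPS, and their tissue was taken right after the last session.

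Acetylcholine in the NAc comes mainly from a sparse class of large interneurons, while most neurons of the region are medium spiny neurons. Choline acetyltransferase (Chat) makes the transmitter, the vesicular carrier Slc18a3 loads it, acetylcholinesterase (Ache) breaks it down in the extracellular space, and the high-affinity transporter Slc5a7 returns the choline to the terminal. Of the muscarinic receptors, Chrm1, Chrm3 and Chrm5 couple to Gq and phospholipase C, and Chrm2 and Chrm4 couple to Gi. In the striatum, Chrm1 is known from most medium spiny neurons, Chrm4 above all from those of the direct pathway, Chrm2 from cholinergic interneurons, and Chrm5 from dopamine neurons. In bulk tissue, fewer cells of a type and less RNA per cell cannot be told apart.

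Between 12312878 and 18850240 reads per library fell on genes. Values are FPKM, which are fragments scaled to gene length and library size, so levels can be compared between genes. A gene was called changed in a comparison at an unadjusted limma p of at most 0.05 and a change of at least 1.3-fold, on the log2(FPKM + 0.1) scale. Adjusted p-values are Benjamini-Hochberg values from limma over all genes tested. In the 6 comparisons within an experiment no gene of any kind passed an adjusted p of 0.05, by limma-trend or by limma-voom on recovered reads, so member calls there rest on unadjusted p-values, of which 4.21% to 11.5% of all genes had one under 0.05. The 10 medium spiny neuron markers (Drd1, Drd2, Adora2a and others) summed to 1228 to 3266 FPKM and were thus present in every library. Genes listed as markers of neighbouring regions were present as well, which alone does not show that tissue of those regions was taken along. The 7 cortical excitatory markers (Slc17a7, Tbr1, Emx1 and others) summed to between 54.7 and 486.6 FPKM, and the 8 markers of septum and ventral forebrain (Zic1, Nkx2-1, Lhx6 and others) to between 40.6 and 150.6 FPKM. The choroid plexus markers stood highest in Saline-Saline replicates 1 and 4 and LPS-Heroin replicate 4, with mean log2 levels of 2.81, 1.38 and 1.65, against 0.63 or less in the other libraries.

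Chrm1 had the highest level of the 8 genes, with a mean of 51.8 FPKM ± 6.66 (SD, n = 24 libraries), followed by Chrm4 with 24.9 ± 5.24 and Ache with 24.3 ± 7.25. The other 5 genes were lower, with Chrm3 at 7.51 ± 2.01, Slc5a7 at 6.59 ± 2.27 and Chat at 4.14 ± 1.58 FPKM. Chrm2 at 2.51 ± 1.09 and Chrm5 at 1.40 ± 0.59 FPKM rested on few reads, 27 to 155 and 15 to 103 per library. Chrm1 varied least across libraries, by 1.79-fold between the highest and the lowest, and Chrm5 the most, by 7.17-fold. Ordered by group mean, every pair of neighbouring groups overlapped in their libraries for every gene, with the exception of Chrm4, whose Heroin-SA libraries all lay above those of LPS-Saline.

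**Figure D1:**
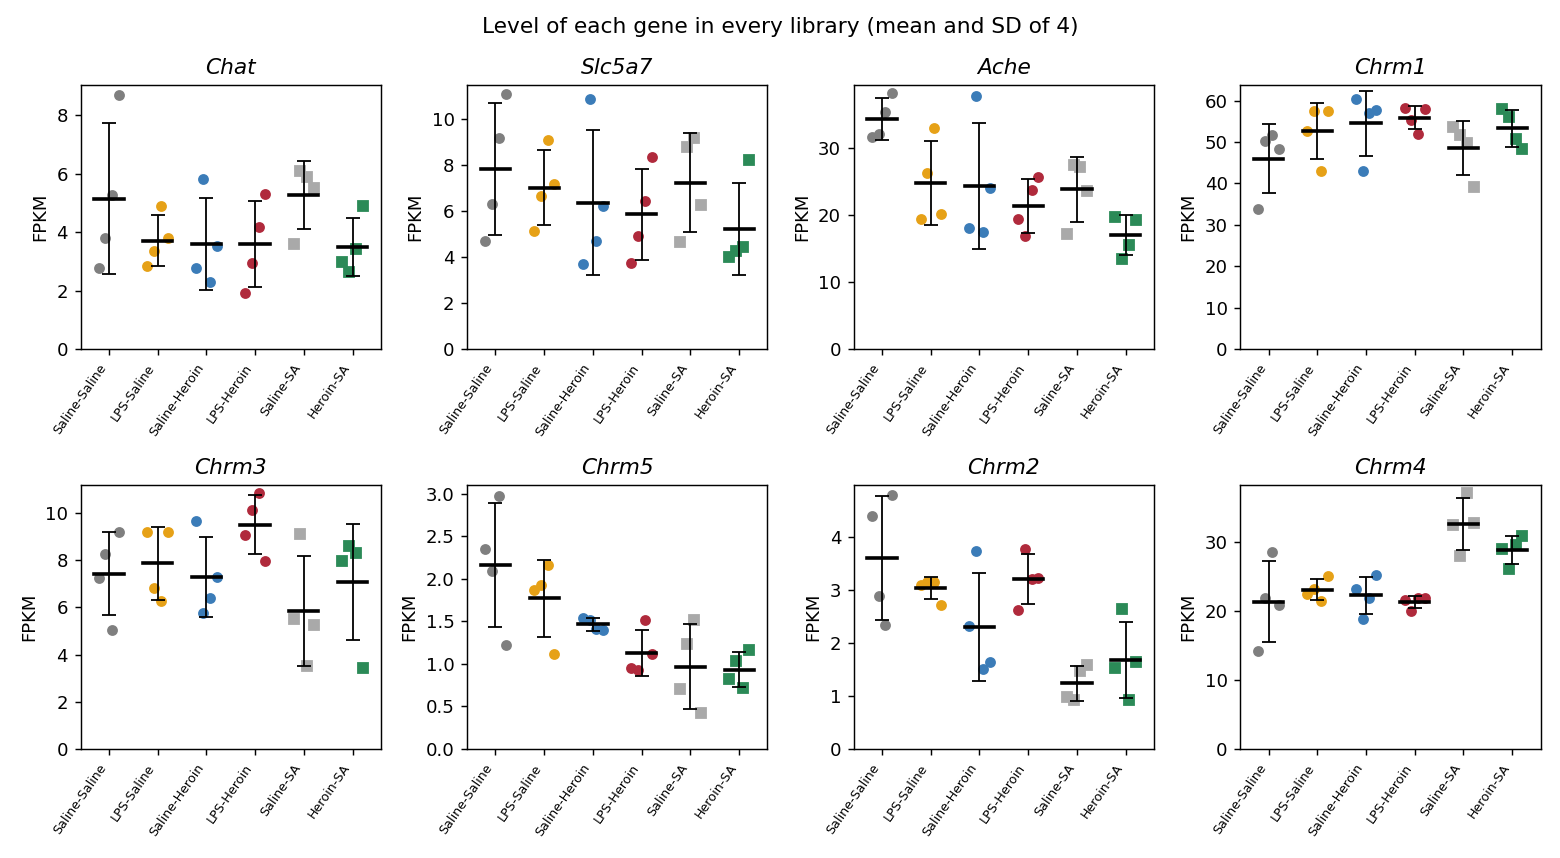
FPKM of the 8 genes (vertical axis, from 0) in every library, by group (horizontal axis). Points are libraries, circles for the injection and squares for the self-administration experiment, and bars give the mean and SD of 4. Ache is highest in Saline-Saline, where its 4 libraries lie between 31.7 and 38.2 FPKM, and Chrm2 is lowest in Saline-SA, where its libraries lie between 0.92 and 1.58 FPKM.

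Chat, in the rn6 build of the deposited table, spans chr16:8576864-8686131 on the minus strand. Its FPKM was 2.78, 3.80, 5.27 and 8.71 in Saline-Saline, 2.83, 3.35, 4.89 and 3.80 in LPS-Saline, 2.77, 5.81, 2.28 and 3.52 in Saline-Heroin and 1.92, 2.94, 4.17 and 5.32 in LPS-Heroin, in the order of the replicate numbers. The 4 injection groups overlapped throughout, and Saline-Saline held both a low library and the highest of all 24. In Saline-SA it was 3.59, 6.09, 5.90 and 5.53, and in Heroin-SA 2.99, 2.65, 3.44 and 4.91 FPKM. Replicates 2 to 4 of Saline-SA lay above all of Heroin-SA, and its replicate 1 lay within it.

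Slc5a7 (chr9:5294381-5330815, minus strand) moved with Chat from library to library. Its FPKM was 4.70, 6.31, 9.17 and 11.1 in Saline-Saline, 5.14, 6.66, 9.11 and 7.18 in LPS-Saline, 3.68, 10.9, 4.72 and 6.23 in Saline-Heroin and 3.73, 4.90, 6.45 and 8.35 in LPS-Heroin. It was 4.65, 8.81, 9.19 and 6.27 in Saline-SA and 4.02, 4.27, 4.42 and 8.22 in Heroin-SA, where replicate 4 stood apart from the other 3. With group means removed, the correlation of Slc5a7 with Chat over the 24 libraries was 0.93.

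Ache (chr12:22472358-22478753, minus strand) was 31.7, 32.1, 35.5 and 38.2 FPKM in Saline-Saline. It was 19.5, 26.3, 33.0 and 20.2 in LPS-Saline, 18.1, 37.7, 17.6 and 24.1 in Saline-Heroin and 19.4, 16.9, 23.7 and 25.7 in LPS-Heroin. All LPS-Heroin libraries lay below all Saline-Saline libraries, while LPS-Saline replicate 3 and Saline-Heroin replicate 2 reached into the control range. It was 17.2, 27.5, 27.1 and 23.6 in Saline-SA and 19.8, 13.4, 15.6 and 19.3 in Heroin-SA. Saline-SA replicate 1 lay among the Heroin-SA libraries and the other 3 lay above them.

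Because these 3 genes moved together, their promoter windows are shown, 250 bases before to 50 after the RefSeq start in the build GRCr8, which is not the build of the table. RefSeq promoter entries of this length were found for 8 of the 9 genes, all but Chrm5. Capitals mark any match, on either strand, to the TATA box TATAAA, the GC box GGGCGG or the core of the cyclic AMP response element TGACGT. None of the 3 windows held the homeodomain core TAATTA, which 5.35% of all 27457 windows held.
Chat, chr16:7723367-7723666, minus strand: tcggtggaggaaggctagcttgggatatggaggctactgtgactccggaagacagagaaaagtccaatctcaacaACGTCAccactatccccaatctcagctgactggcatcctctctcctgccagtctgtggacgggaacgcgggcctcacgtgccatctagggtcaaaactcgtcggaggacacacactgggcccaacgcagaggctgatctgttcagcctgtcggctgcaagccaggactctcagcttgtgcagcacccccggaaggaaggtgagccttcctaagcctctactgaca
Slc5a7, chr9:7953460-7953759, minus strand: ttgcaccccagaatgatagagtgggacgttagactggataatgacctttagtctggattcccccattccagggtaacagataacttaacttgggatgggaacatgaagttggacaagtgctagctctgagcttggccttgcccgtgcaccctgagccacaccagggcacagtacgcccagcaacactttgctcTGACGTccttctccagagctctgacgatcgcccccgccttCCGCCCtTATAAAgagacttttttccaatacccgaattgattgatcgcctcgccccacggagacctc
Ache, chr12:25050361-25050660, minus strand: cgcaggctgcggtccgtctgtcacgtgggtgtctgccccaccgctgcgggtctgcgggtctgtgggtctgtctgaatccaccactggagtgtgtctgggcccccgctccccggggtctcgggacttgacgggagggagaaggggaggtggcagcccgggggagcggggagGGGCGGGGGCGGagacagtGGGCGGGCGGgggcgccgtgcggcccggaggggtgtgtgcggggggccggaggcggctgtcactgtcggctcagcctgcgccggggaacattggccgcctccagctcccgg
The Ache window held 4 GC boxes, some of them overlapping, at 57 to 80 bases before the start, and 75.0% of its bases were G or C, against a median of 52.3% over all windows. A GC box was in 34.9% of all windows, and the Chat window held none. The cyclic AMP core, in 8.22% of all windows, was in the Chat window at 175 and in the Slc5a7 window at 57 bases before the start. A TATA box, in 14.3% of all windows, was in the Slc5a7 window only, at 10 bases before the start. These are matches of letters and not sites of binding.

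The question set for these genes was whether Ache follows the cholinergic neuron genes in each library. Within groups it did, as a correlation: libraries with more Chat and Slc5a7 RNA tended to have more Ache RNA. The group means did not follow throughout. Saline-SA had the highest mean Chat, 5.28 FPKM against 5.14 in Saline-Saline, but a mean Ache of 23.8 against 34.4 FPKM. With group means removed, Ache correlated with Chat at r = 0.75 and rho = 0.78 over 24 libraries (permutation test within groups, p = 7.00e-05, adjusted p = 0.000245 over the 7 relations tested with r). With Slc5a7, r was 0.79 and rho 0.77 (permutation p = 2.00e-05, adjusted p = 0.00014). For rho the adjusted permutation p was 0.000385 for both genes. Without the 2 libraries farthest from the median, r was 0.81 for Chat and 0.74 for Slc5a7. As measured, with the groups left in, r was 0.66 for Chat and 0.76 for Slc5a7, with rho of 0.65 and 0.76.

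Within each experiment, with the groups left in, both correlations were positive. The permutations for these ran across groups, so differences between groups can enter these r and p-values. In the 16 injection libraries r was 0.76 with Chat and 0.78 with Slc5a7, with an adjusted permutation p of 0.00192 for each. In the 8 self-administration libraries r was 0.89 with Chat and 0.79 with Slc5a7, with adjusted p from an exact permutation test of 0.034 and 0.0957, so that only Chat passed there, and by rho neither did (exact, adjusted p = 0.075 and 0.243). Taking the mean of Chat and Slc5a7 as the cholinergic level of a library, with group means removed, r with Ache was 0.79 over all libraries, 0.80 in the injection libraries and 0.76 in the self-administration libraries. By rho it was 0.81 in the injection and 0.55 in the self-administration libraries. Without the 2 libraries farthest from the median, r was 0.74 and 0.61. Over all libraries, Ache changed by 0.52 on the log2 scale for each unit of log2 in this mean. Of 13863 genes with a mean of at least 1 FPKM, 0.216% correlated with Ache at or above the value of this mean.

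**Figure D2:**
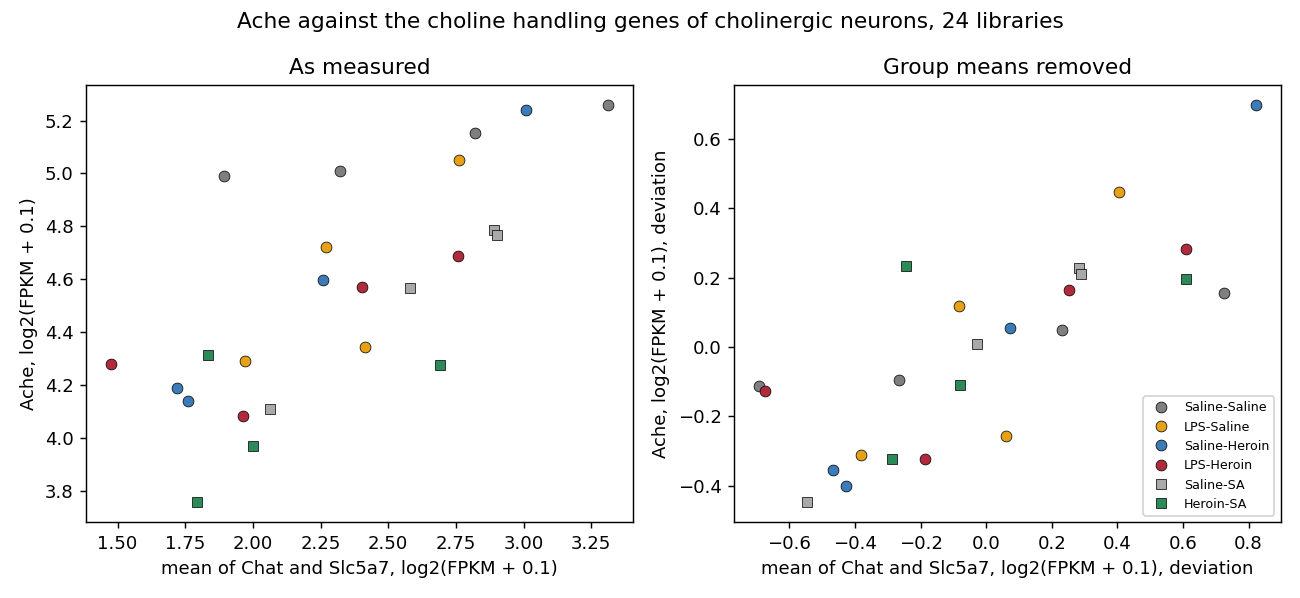
Ache (vertical axis) against the mean of Chat and Slc5a7 (horizontal axis), both as log2(FPKM + 0.1), in 24 libraries coloured by group, as measured (left) and with group means removed (right). Libraries with more Chat and Slc5a7 have more Ache, with r = 0.73 on the left and 0.79 on the right, and the 4 Saline-Saline libraries lie in the upper part of the left panel.

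No muscarinic receptor passed the same test. With group means removed, r with Ache was -0.39 for Chrm1, -0.36 for Chrm3, -0.05 for Chrm4, 0.27 for Chrm2 and 0.29 for Chrm5, and none passed the permutation test (adjusted p between 0.182 and 0.791). As measured, Chrm1 was lower where Ache was higher (r = -0.51, adjusted permutation p = 0.0167) and Chrm5 higher (r = 0.56, adjusted permutation p = 0.0105), and in the 16 injection libraries the values were -0.65 and 0.54, with -0.54 for Chrm3 (adjusted permutation p = 0.00728, 0.0454 and 0.0454). In the 8 self-administration libraries Chrm1, Chrm5 and Chrm3 had r of -0.41, 0.24 and -0.34, with exact adjusted p of 0.537, 0.577 and 0.537. Over the 24 libraries, Chrm1 and Chrm5 no longer passed once group means were removed, though r kept its sign at -0.39 and 0.29. For the 16 injection libraries alone, the receptors were not tested with group means removed.

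The genes most like Ache over the 24 libraries, with group means removed, were Nap1l5 (r = 0.92), Lhx8 (r = 0.90), Grin2d (r = 0.89), Ecel1 (r = 0.89) and Nkx2-1 (r = 0.88). Among those most like the mean of Chat and Slc5a7 were Slc10a4 (r = 0.91), Ecel1 (r = 0.90), Lhx8 (r = 0.85) and Ext2 (r = 0.81). Lhx8 and Nkx2-1 are transcription factors of developing forebrain cholinergic and other ventral neurons, Slc10a4 is a transporter of synaptic vesicles in cholinergic neurons, and Grin2d is an NMDA receptor subunit. The 8 cholinergic identity genes (Lhx8, Isl1, Gbx2, Slc10a4 and others) correlated as a mean with Ache at 0.92, with Chat at 0.88 and with Slc5a7 at 0.89.

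Regional markers moved with the same genes. Ache correlated with the septum and ventral forebrain markers at 0.86, Chat at 0.62 and Slc5a7 at 0.64, and with the cortical markers they correlated at -0.52, -0.39 and -0.58. Lhx8 and Isl1 are also known from cholinergic neurons of the septum and basal forebrain, so the identity genes do not separate them from those of the NAc. The septum and ventral forebrain list in turn holds Nkx2-1, named above for cholinergic neurons. Its correlation with Ache therefore does not separate these regions either. With the medium spiny markers the correlation of Ache was 0.08. Chrm3 correlated with the cortical markers at 0.86 and with the nicotinic subunits at 0.74. Chrm1 correlated with the cortical markers at 0.49 and with the septum markers at -0.65. Chrm4 and Chrm5 were most like the medium spiny markers among the cell type lists, at 0.49 and 0.58. Chrm2 was most like the septum markers, at 0.50, with the choroid plexus markers close at 0.48. With the choroid plexus markers Chrm4 correlated at -0.51. All of these share libraries and depth and are given as a description, and the part of tissue taken along in dissection was not tested.

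**Figure D3:**
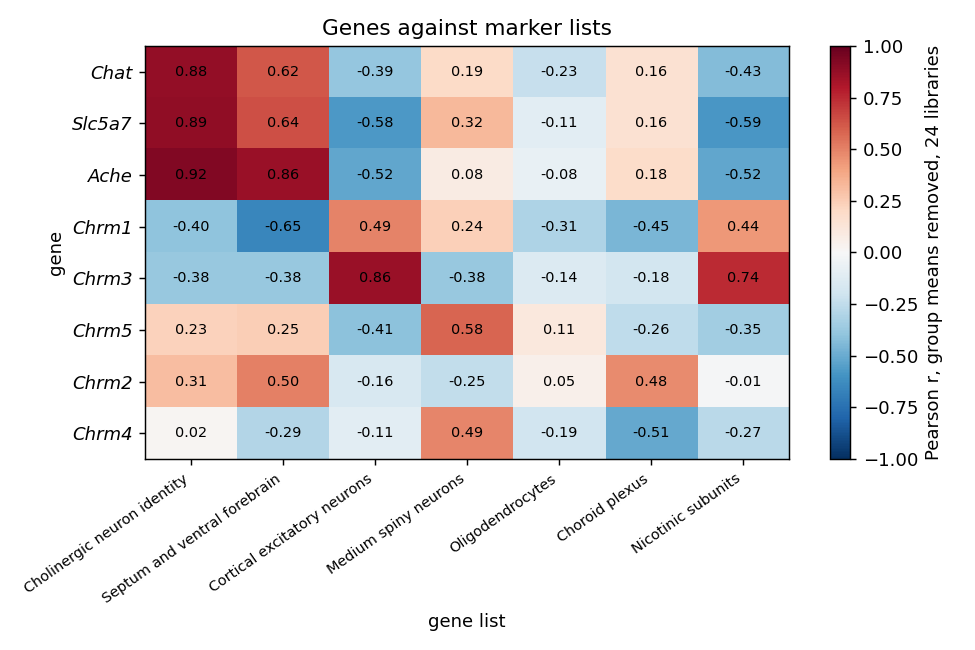
Pearson r, with group means removed over 24 libraries, of each gene (rows) with the mean log2 level of each gene list (columns), with the value printed in each cell and red for positive. Chat, Slc5a7 and Ache share high values with cholinergic identity (0.88 to 0.92), and Chrm3 stands out with the cortical markers at 0.86.

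In LPS-Saline against Saline-Saline, which asks what LPS alone left behind, 1 of the 8 genes was called, against 2.36% of all genes tested. Ache was lower in LPS-Saline, with a log2 fold change of -0.50 ± 0.16 (SE, n = 4 and 4) and an adjusted p of 0.679. The groups overlapped, and the exact permutation test gave 0.0857, where the smallest p this design allows is 0.0286. Chat had a log2 fold change of -0.36 ± 0.32 and was not called, and it was -0.07 without Saline-Saline replicate 4 and -0.60 without replicate 1. With the mean of Chat and Slc5a7 as a covariate, the log2 fold change of Ache was -0.42 and was still past both limits. The other 7 genes had log2 fold changes between -0.36 and 0.21. Of the cortical and the septum markers none was called, with medians of 0.58 and -0.44, and 1 of 6 choroid plexus markers was lower.

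In Saline-Heroin against the same Saline-Saline libraries, the effect of heroin alone, Ache was again the 1 gene called, against 3.07% of all genes. Its log2 fold change was -0.56 ± 0.22 (adjusted p = 0.750 from limma), the groups overlapped and the exact permutation p was 0.114. The call was lost without Saline-Saline replicate 3 (-0.54) or 4 (-0.51) and without Saline-Heroin replicate 1 (-0.44), 3 (-0.43) or 4 (-0.58). With the cholinergic level as a covariate it was -0.35, under the limit of 1.3-fold. Chat, Slc5a7, Chrm2 and Chrm5 had log2 fold changes of -0.47 ± 0.38, -0.33 ± 0.36, -0.66 ± 0.32 and -0.47 ± 0.26, and none was called. Chrm2 passed both limits without Saline-Saline replicate 3 (-0.84) or Saline-Heroin replicate 2 (-0.91), and Chrm5 without Saline-Saline replicate 4 (-0.71). Beside this, 3 of the 8 septum and ventral forebrain markers were lower, with a median of -0.62, none of the 7 cortical markers was called, with a median of 0.60, and 2 of the 5 red blood cell genes were higher, with a median of 0.83.

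In LPS-Heroin against Saline-Saline, Ache and Chrm5 were called, 2 of 8 against 5.42% of all genes. Ache had a log2 fold change of -0.70 ± 0.13, with an adjusted p of 0.154 from limma, and its groups did not overlap, which held for 6.86% of all genes. The exact permutation p was 0.0286, the smallest possible here. It was -0.57 with the cholinergic level as a covariate. Chrm5 had a log2 fold change of -0.84 ± 0.29 (adjusted p = 0.319) with FPKM of 2.36, 2.09, 2.98 and 1.22 in Saline-Saline and 0.95, 0.93, 1.51 and 1.11 in LPS-Heroin. Saline-Saline replicate 4 lay inside the LPS-Heroin range, and without Saline-Saline replicate 3 the call was lost at -0.67. Chat (-0.48 ± 0.39) and Slc5a7 (-0.40 ± 0.31) were not called.

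Chrm1 was 33.7, 50.2, 51.7 and 48.4 FPKM in Saline-Saline and 58.1, 55.4, 52.0 and 58.0 in LPS-Heroin. The groups did not overlap, but the log2 fold change of 0.30 ± 0.13 was under the limit of 1.3-fold, and it was 0.16 without Saline-Saline replicate 1, the library with the highest choroid plexus level. Chrm3 was 7.23, 8.28, 5.05 and 9.18 in Saline-Saline and 9.09, 10.1, 10.8 and 7.98 in LPS-Heroin. Its log2 fold change of 0.37 ± 0.18 was not called. It was called without Saline-Saline replicate 4 (0.49) or LPS-Heroin replicate 4 (0.45), and was 0.20 without Saline-Saline replicate 3. In this comparison the cortical markers were higher in all 7 of 7, with a median log2 fold change of 1.13, the septum and ventral forebrain markers were lower in 6 of 8, with a median of -0.98, the red blood cell genes were higher in 4 of 5, and none of the 10 medium spiny markers was called. Over all genes 2.99% were called higher and 2.44% lower, and the median was 0.00. The cortical list lay between 4.17 and 4.47 in the LPS-Heroin libraries and between 2.43 and 3.82 in the Saline-Saline libraries, without overlap. The part of these markers in the results for Ache, Chrm1, Chrm3 and Chrm5 was not tested.

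**Figure D4:**
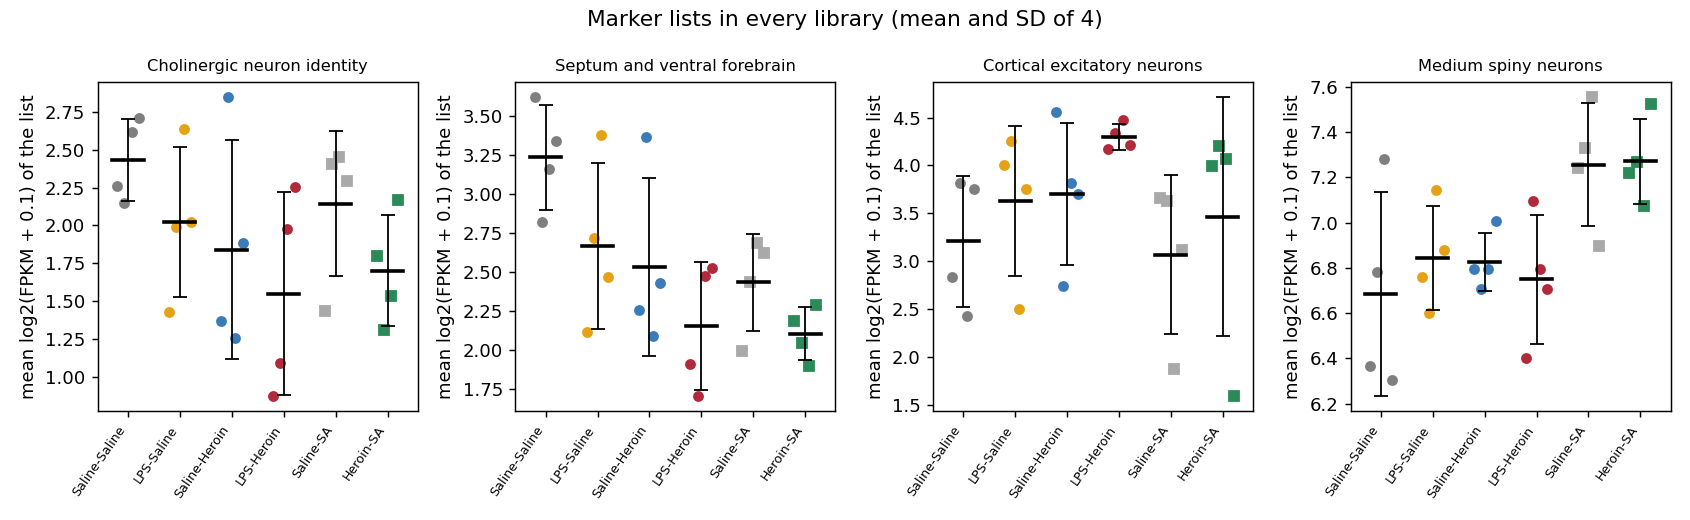
Mean log2(FPKM + 0.1) of 4 marker lists (vertical axis) in every library by group (horizontal axis), with the mean and SD of 4. The cortical list is high in all LPS-Heroin libraries (4.17 to 4.47), while the septum and ventral forebrain list has its highest mean in Saline-Saline, whose libraries lie between 2.82 and 3.62.

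Adding heroin after LPS, as LPS-Heroin against LPS-Saline, called none of the 8 genes, against 2.29% of all genes, and 3 of the alternatives and 2 of the fits without 1 library called 1. The gene called there was Chrm5, at -0.60 ± 0.27 in the comparison itself (adjusted p = 0.977 from limma), and it passed without LPS-Saline replicate 4 (-0.79) or LPS-Heroin replicate 3 (-0.74). Ache had a log2 fold change of -0.20 ± 0.19. In LPS-Heroin against Saline-Heroin, Chrm3 was called, 1 of 8 against 2.20% of all genes, with 9.65, 5.76, 6.40 and 7.28 FPKM in Saline-Heroin and a log2 fold change of 0.40 ± 0.17 (adjusted p = 1.00 from limma). The call was lost without any of 6 of the 8 libraries, with values from 0.30 to 0.42, and held only without Saline-Heroin replicate 1 or LPS-Heroin replicate 4. Beside it, the log2 fold changes of all 7 cortical markers were above 0, with a median of 0.53 and 1 called, and those of all 8 septum and ventral forebrain markers were below 0, with a median of -0.31 and 1 called. Their part in the Chrm3 result was not tested. Chrm2 had a log2 fold change of 0.54 ± 0.27 and passed without Saline-Heroin replicate 2 (0.79). Ache had a log2 fold change of -0.14 ± 0.24, which turned to 0.10 without Saline-Heroin replicate 2.

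A test of whether heroin acted differently after LPS, the interaction term over the 16 injection libraries, called none of the 8 genes, against 2.31% of all genes. For Ache the term was 0.37 ± 0.31 (log2) with a 95% interval from -0.30 to 1.03, and for Chrm2 it was 0.73 ± 0.37 with an interval from -0.06 to 1.51. Without Saline-Heroin replicate 2 both passed the limits, at 0.60 and 0.98, and Chrm2 also passed without Saline-Saline replicate 3 (0.91). Saline-Heroin replicate 2 had the highest Chat, Slc5a7, Ache and Chrm2 of its group. It also had the highest mean log2 level of the septum and ventral forebrain markers, 3.37 against 2.09 to 2.43. Its cortical marker level was the lowest of the group, 2.74 against 3.70 to 4.55. The part of these markers in the interaction terms was not tested.

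In Heroin-SA against Saline-SA, Ache and Chat were called lower, 2 of 8 against 5.44% of all genes (2.41% lower and 3.03% higher). Ache had a log2 fold change of -0.48 ± 0.18 (adjusted p = 0.378 from limma) and Chat of -0.59 ± 0.23 (adjusted p = 0.398 from limma). Both overlapped between the groups, with exact permutation p of 0.0857 and 0.0571. Slc5a7, at -0.47 ± 0.28, was not called, and passed without Saline-SA replicate 1 (-0.66) or Heroin-SA replicate 4 (-0.71). The Ache call was lost without Saline-SA replicate 2 (-0.40) or 3 (-0.41) or Heroin-SA replicate 2 (-0.37) or 3 (-0.44). The Chat call was lost without Saline-SA replicate 2 (-0.51), 3 (-0.53) or 4 (-0.56) or Heroin-SA replicate 1 (-0.53), 2 (-0.47) or 3 (-0.59). With the cholinergic level as a covariate, Ache had a log2 fold change of -0.19 and was no longer called. Against Saline-Saline, with that covariate, Ache was still called in LPS-Saline and LPS-Heroin but not in Saline-Heroin. Whether the contrasts differ in this was not tested. The muscarinic receptors had log2 fold changes between -0.17 and 0.36, none called. No cortical, septum or medium spiny marker was called here, with medians of 0.45, -0.34 and -0.02, and the part of these markers in the results was not tested.

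**Figure D5:**
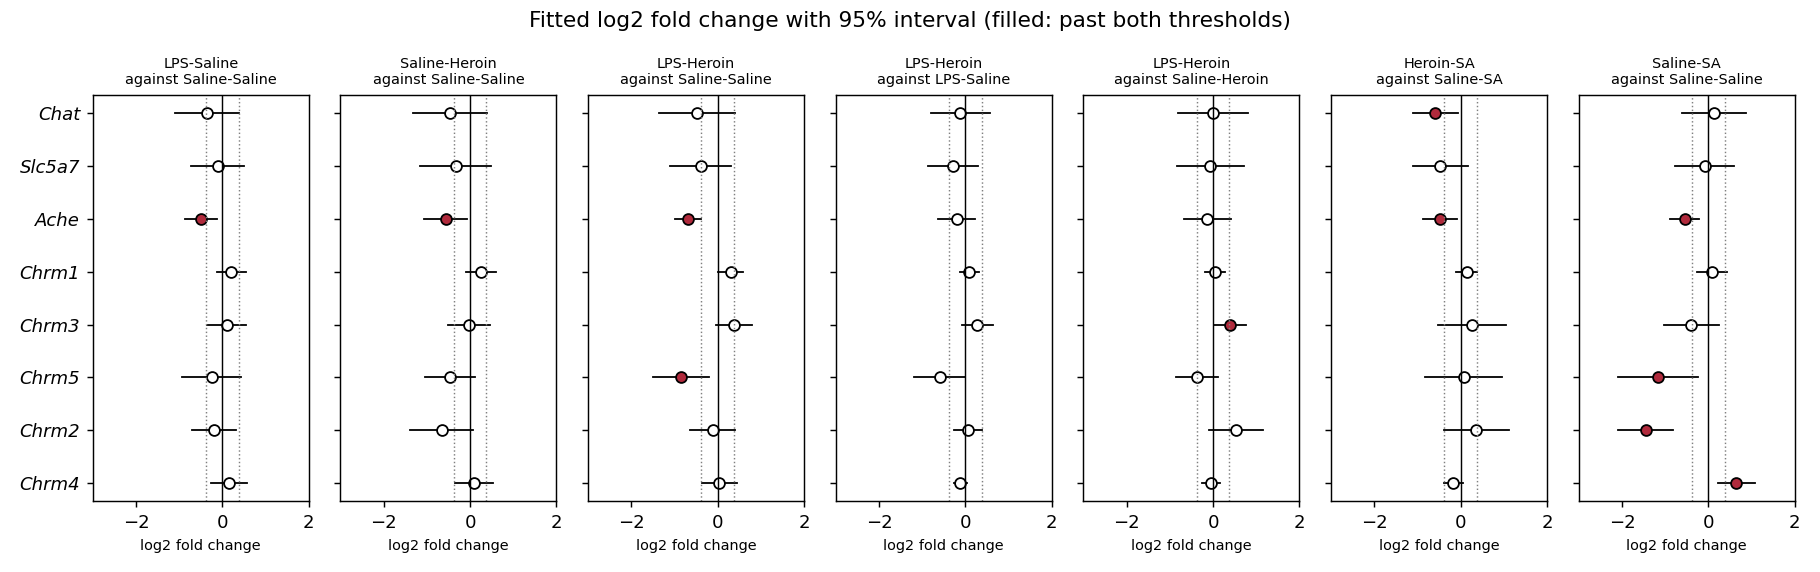
Fitted log2 fold change (horizontal axis) with its 95% interval for each gene (vertical axis) in 7 comparisons. Filled points passed an unadjusted p of 0.05 and 1.3-fold, and dotted lines mark 1.3-fold. Ache is filled in all 3 comparisons of an injected group with Saline-Saline and in both that involve Saline-SA. All of these but Heroin-SA against Saline-SA share the same Saline-Saline libraries, so they are not independent of each other. Heroin-SA against Saline-SA in turn shares the Saline-SA libraries with Saline-SA against Saline-Saline. Ache is not filled for LPS-Heroin against LPS-Saline or against Saline-Heroin.

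The control groups of the experiments, Saline-SA against Saline-Saline, differed in 4 of the 8 genes, against 22.7% of all genes (14.3% lower and 8.46% higher). The experiments also differ in surgery, housing, light cycle and time of killing, which cannot be told apart here. Chrm2 was 4.39, 2.89, 2.34 and 4.79 FPKM in Saline-Saline and 0.98, 0.92, 1.46 and 1.58 in Saline-SA, without overlap (28.3% of all genes had none), a log2 fold change of -1.45 ± 0.28 (adjusted p = 0.0073 from limma). Chrm4 was 14.2, 21.8, 28.5 and 20.8 in Saline-Saline and 32.5, 27.9, 37.1 and 32.7 in Saline-SA, overlapping only in Saline-Saline replicate 3, a log2 fold change of 0.64 ± 0.19 (adjusted p = 0.0377 from limma). Ache had a log2 fold change of -0.55 ± 0.15 (adjusted p = 0.0276 from limma) without overlap, and Chrm5 of -1.16 ± 0.41 (adjusted p = 0.0709 from limma), with 0.70, 1.23, 1.52 and 0.42 FPKM in Saline-SA. Without Saline-Saline replicate 3, the Chrm5 call was lost (-0.99).

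Chat (0.13 ± 0.33) and Slc5a7 (-0.09 ± 0.30) were not called between these control groups, and with their mean as a covariate Ache stayed at -0.55. Of the medium spiny markers 7 of 10 were higher in Saline-SA, with a median log2 fold change of 0.55, of the septum and ventral forebrain markers 3 of 8 were lower, and of the oligodendrocyte markers 5 of 7 were lower. The red blood cell genes were higher in 3 of 5, with a median of 1.41, and of the 6 choroid plexus markers 1 was higher, with a median of -0.80. Mitochondrial reads took 10.0% to 15.9% of the self-administration and 6.82% to 9.10% of the injection libraries. Their part in these 4 results was not tested. The Chrm4 span overlaps Mdk on the opposite strand at its end and the Chrm5 span holds the small RNA gene SNORA11 on the opposite strand, and whether counting used the strand is not given in the sources used here.

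Of the cholinergic identity genes, Lhx8 was 7.21, 13.4, 17.3 and 15.2 FPKM in Saline-Saline and 2.25, 2.39, 8.17 and 8.75 in LPS-Heroin, so that its log2 fold change was -1.48 ± 0.49. In LPS-Heroin against Saline-Saline, 5 of the 8 identity genes were lower, against 2.44% of all genes and beside 6 of 8 septum and ventral forebrain markers, the others being Gbx2 (-1.45), Slc10a4 (-0.93), Isl1 (-0.71) and Tacr1 (-0.51), and the median of the list was -0.86. Their adjusted p was between 0.307 and 0.396. The Lhx8 call held without any 1 library. That of Gbx2 was lost without Saline-Saline replicate 3 (-1.20), that of Slc10a4 without Saline-Saline replicate 4 (-0.78) or LPS-Heroin replicate 1 (-0.64) or 2 (-0.78), and that of Isl1 without Saline-Saline replicate 1 (-0.64) or 3 (-0.62) or LPS-Heroin replicate 1 (-0.51) or 2 (-0.57). That of Tacr1 held only without Saline-Saline replicate 2 or 4 or LPS-Heroin replicate 2, and was between -0.39 and -0.51 in the fits that lost it. In LPS-Saline against Saline-Saline, 2 of the 8 were lower, against 2.36% of all genes called, and in Saline-Heroin against Saline-Saline 0 of 8 were called, against 3.07%. The calls do not rank the shifts. In LPS-Saline 7 of 8 log2 fold changes were below 0 (48.1% of all genes), with a median of -0.36. In Saline-Heroin all 8 were below 0 (49.4% of all genes), with a median of -0.62. Ngfr, the low-affinity neurotrophin receptor, was 2.18, 1.91, 2.17 and 12.5 FPKM in Saline-Saline and 0.81, 1.34, 1.81 and 1.14 in LPS-Saline, a log2 fold change of -1.35 ± 0.57. Saline-Saline replicate 4 set much of its size: without it the value was -0.72, still called, and the call was lost without LPS-Saline replicate 1 (-1.17), 2 (-1.39) or 4 (-1.32). Slc10a4 was at -0.58 ± 0.22, lost without Saline-Saline replicate 4 (-0.44) or LPS-Saline replicate 1 (-0.44) or 2 (-0.52). Ngfr was 0.91, 8.49, 5.09 and 7.92 FPKM in Saline-SA and 2.10, 0.49, 1.42 and 0.59 in Heroin-SA, a log2 fold change of -2.01 ± 0.71, and Lhx8 was lower there as well at -0.71 ± 0.31, 2 of 8 against 5.44% of all genes. The Ngfr call was lost without Saline-SA replicate 2 (-1.68) or 4 (-1.72) or Heroin-SA replicate 2 (-1.72), and the Lhx8 call held only without Saline-SA replicate 1 or Heroin-SA replicate 4, and was between -0.50 and -0.70 otherwise. Gbx2 was lower in LPS-Heroin than in LPS-Saline, at -1.40 ± 0.56, a call that held only without LPS-Saline replicate 1 or LPS-Heroin replicate 3, with values between -1.05 and -1.46 otherwise.

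The nicotinic receptor subunits are ion channels opened by acetylcholine, of which 4 or 5 of 11 passed the filter on low values within the experiments. In LPS-Heroin, 1 of 4 was called higher against Saline-Saline, 1 of 4 against LPS-Saline and 2 of 4 against Saline-Heroin, where 5.42%, 2.29% and 2.20% of all genes were called. Chrna5, an accessory subunit, was 1.80, 4.24, 1.57 and 3.63 FPKM in Saline-Saline, 4.74, 5.77, 2.19 and 2.85 in LPS-Saline, 4.92, 0.96, 3.21 and 1.79 in Saline-Heroin and 5.74, 8.56, 5.71 and 7.10 in LPS-Heroin. All LPS-Heroin libraries lay above all of Saline-Saline and of Saline-Heroin, which held for 6.86% and 2.37% of all genes in either direction, while LPS-Saline replicate 2 lay within the LPS-Heroin range. The log2 fold change was 1.34 ± 0.32 against Saline-Saline, 1.50 ± 0.43 against Saline-Heroin and 0.87 ± 0.29 against LPS-Saline, with adjusted p of 0.199, 1.00 and 0.977 from limma. Chrna4 was also higher in LPS-Heroin than in Saline-Heroin, at 0.57 ± 0.19. These calls held without any 1 library. No other subunit was called within the experiments. With group means removed the nicotinic list correlated with Chrm3 at 0.74, and the cortical markers, higher in 7 of 7 in LPS-Heroin against Saline-Saline, moved beside Chrna5, their part in it not tested. Between the control groups, Chrna7 (-1.08 ± 0.23) and Chrnb2 (-0.51 ± 0.06) were lower in Saline-SA, 2 of 6 subunits tested against 14.3% of all genes.

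Of 13 genes of muscarinic coupling, Rgs4, which shortens Gq and Gi signals, was 56.3, 59.0, 50.9 and 73.6 FPKM in Saline-Saline and 93.1, 84.7, 103.5 and 76.5 in LPS-Heroin, without overlap (6.86% of all genes had none), at a log2 fold change of 0.58 ± 0.13, which stayed called without any 1 library. Itpr1, the inositol trisphosphate receptor, was higher in LPS-Heroin as well (0.44 ± 0.19), a call that held only without Saline-Saline replicate 3 or LPS-Heroin replicate 3 or 4, with values between 0.31 and 0.43 otherwise. Together 2 of the 13 were called higher there and none lower, against 2.99% of all genes called higher. In Heroin-SA against Saline-SA, 3 of the 13 were called higher and none lower, against 3.03% of all genes called higher. Among them were Itpr1 (0.61 ± 0.19) and Rgs4 (0.40 ± 0.15), the latter lost without Saline-SA replicate 4 (0.33) or Heroin-SA replicate 1 (0.36) or 3 (0.27). Between the control groups 6 of 13 were lower in Saline-SA, against 14.3% of all genes, among them the G protein subunits Gnaq (-1.46 ± 0.09) and Gnai1 (-0.92 ± 0.11), and the channel subunit Kcnq3 (-1.15 ± 0.15). Plcb1 (-0.56), Plcb4 (-0.49) and Itpr1 (-0.59) were the others, and adjusted p over the 6 ranged from 7.49e-05 to 0.122. The Plcb4 call held only without Saline-Saline replicate 2 or Saline-SA replicate 4, and lay between -0.33 and -0.53 otherwise. Of the 8 genes of choline supply and esterase anchoring, none was called within the experiments. Between the control groups 1 of 8 was lower and 1 higher in Saline-SA, against 14.3% and 8.46% of all genes, which is near the share over all genes. Slc44a1 was lower (-0.43 ± 0.12) and Chka, the choline kinase, was higher (0.54 ± 0.09), the former lost without Saline-Saline replicate 1 (-0.34) or 2 (-0.37).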

How the data were processed

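RNA-seq of the NAc was held for 24 libraries, 4 in each of 6 groups taken from the labels. Per the labels and the paper's methods, the authors made directional poly-A libraries, trimmed reads with fastp, aligned them to rn6 with HISAT2, counted them with featureCounts and deposited FPKM, whose versions are not given in the sources used here. The study states 6 sequenced samples per group, and 4 were held here. FPKM times gene length gave whole reads for 100% of values (tolerance 0.01).

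Genes with a mean of at least 0.5 FPKM were tested with limma-trend (limma 3.58.1, R 4.3.3) on log2(FPKM + 0.1), which stands in for the count test of the study because the deposited unit is FPKM. Limma-voom on the recovered reads was an alternative. Limits were an unadjusted p of 0.05 and 1.3-fold. Fold changes of low genes are understated on this scale. Exact permutation tests compared 4 with 4 libraries, and correlations used 100000 permutations (exact for 8 libraries) in Python 3.11.15. The fits were tested on simulated data. Slc18a3 was not analysed here, so 7 relations of Ache were tested and the cholinergic level is the mean of Chat and Slc5a7. All 8 genes and those of the other lists that were called are named, with the 5 genes most alike. Some genes that this rule would name are not reported here. The members and lists were chosen with earlier results of these data known. P-values measure only the spread between these libraries.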

Additional observations from a re-analysis of the deposited data

Results flagged for a closer look

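In 48 groups of 4 libraries, 3 had a library far from the other 3 by Dixon's test. Chance alone gives this in about 1 in 20 groups, so 3 of 48 is near the chance rate. Heroin-SA replicate 4 had 8.22 FPKM of Slc5a7 against 4.02 to 4.42 in the other 3, and 3.43 FPKM of Chrm3 against 7.98 to 8.60. The same library had the lowest cortical marker level of all 24, at 1.59 on the log2 scale against 3.99 to 4.20 in the rest of its group, and the part of these markers was not tested. LPS-Saline replicate 4 had 2.72 FPKM of Chrm2 against 3.10 to 3.15, a small gap that rested on 82 reads against 89 to 100.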

How the results depend on the processing

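The alternatives were other pseudocounts, filters and scalings, all 24 libraries in a single fit, a replicate block, limma-voom on recovered reads, robust moderation and no limit on the fold change. The 4 members called in Saline-SA against Saline-Saline and the 1 in LPS-Saline against Saline-Saline came out at the same count in all 11. Other counts moved. A single fit of all libraries called 2 in Saline-Heroin against Saline-Saline, 0 in LPS-Heroin against Saline-Heroin and 1 in Heroin-SA against Saline-SA. In LPS-Heroin against LPS-Saline, a pseudocount of 0.01, limma-voom and robust moderation each called 1, and in LPS-Heroin against Saline-Heroin a pseudocount of 1 called 0. The cause was not tested.

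Replicate numbers did not pair the libraries: correlations of same-numbered libraries lay between -0.15 and 0.15, and the own number correlated best in 38 of 120 combinations. With the replicate block, the count was 4 in LPS-Heroin against Saline-Saline, where Chat (-0.48) and Slc5a7 (-0.40) passed as well, 0 in LPS-Heroin against Saline-Heroin and 1 in Heroin-SA against Saline-SA, and r of Ache with Chat was 0.77 and with Slc5a7 0.82.

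Without 1 library each, counts ranged from 0 to 2 in Saline-Heroin against Saline-Saline, 1 to 3 in LPS-Heroin against Saline-Saline, 0 to 1 in LPS-Heroin against LPS-Saline and against Saline-Heroin, 0 to 3 in Heroin-SA against Saline-SA, 3 to 5 in Saline-SA against Saline-Saline and 0 to 2 for the interaction. Ache in LPS-Heroin against Saline-Heroin ranged from -0.27 to 0.10. The correlation of Ache with Chat ranged from 0.69 to 0.79 and with Slc5a7 from 0.72 to 0.85. With 15 to 155 reads, Chrm2 and Chrm5 are the least precise of the 8. Of the calls among the other lists, 7 of 19 within the experiments and 10 of 12 between the control groups held without any 1 library, a check chosen after seeing the data.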
